A study of Mus musculus with 10 samples.

Results

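The growth hormone, STAT5 and IGF1 axis was followed through 10 genes: the receptor gene Ghr, the signal carriers Stat5a and Stat5b, the STAT5-responsive genes Socs2, Cish, Bcl6 and Cux2, and the liver outputs Igf1, Igfals and Igfbp2. They were chosen by name, and all 10 were found among the 18193 genes that had a single symbol in the array's annotation. They are represented by 25 of the 45101 probe sets, short sets of probes that each read a stretch of a transcript, with between 1 and 6 probe sets per gene. The livers came from 10 male B6C3F1/Crl mice, a hybrid of the C57BL/6 and C3H/He strains. The mice were received at 29 to 32 days of age and given 5 days to settle. The 5 treated animals drank water with phenobarbital at 0.05% (w/v) for 28 days, and the 5 controls were the other group of the same random division. The labels name no transgene or deletion, and each array held RNA from 1 whole liver. The values are log2 expression levels, so a difference of 1 is a 2-fold difference.

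Growth hormone from the pituitary binds its receptor on hepatocytes, and the receptor-bound kinase JAK2 phosphorylates STAT5B and STAT5A, which enter the nucleus and switch genes on. Among these genes are Igf1, Socs2 and Cish. Expression of Igf1 in liver is the main source of circulating insulin-like growth factor 1, and the proteins of Socs2 and Cish damp the receptor's signal. Growth hormone is released in pulses in male rodents and more evenly in females, and this pattern sets sex differences in liver gene expression, with Bcl6 as a male-biased and Cux2 as a female-biased repressor in mouse liver.

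The arrays differed in ways that accompany the groups. The mean of 24 spike-in probe sets for RNA added before labelling lay between 7.77 and 8.64 in 4 controls (replicates 1, 2, 3 and 5), at 6.40 in the remaining control (replicate 4) and at 5.76 to 6.58 in the treated livers. Over 5 array measures (poly-A and hybridisation spike-ins, 18S ribosomal RNA, and the 3' minus 5' differences of Actb and Gapdh) the exact two-sided permutation p lay between 0.00794 and 0.0317, with Benjamini-Hochberg values from 0.0298 to 0.0317. The fit was therefore repeated with the spike-in set as a block. The block compares the 5 treated livers with control replicate 4 alone, and its result is called the within-set value below. The mean of each of the 5 measures was lower in treated livers. The Gapdh difference was -0.15 to -0.03 in controls, -0.15 in control replicate 4, and -0.28 to -0.21 in treated livers. The block does not adjust for that difference, which also sets control replicate 4 apart from the treated livers. The part of these array differences in the results was not tested beyond these values. The 6 measured hepatocyte markers averaged 14.30 to 14.36 in controls and 14.23 to 14.32 in treated livers, whereas the 6 kidney markers averaged 4.52 to 5.33 and 4.65 to 4.76. Control replicate 2 was the highest of these, with Kap at 7.76 (5.41 to 6.13 in the other livers) and Umod at 4.36 (3.15 to 3.66). No axis gene passed when that animal was left out, nor when phenobarbital replicate 1 was left out instead. Without control replicate 2 the log2 changes of Ghr and Igfbp2 were -0.21 and -0.42, against -0.21 and -0.44 over all livers.

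Ghr and Igfbp2 were lower in phenobarbital livers, and 3 of the 4 probe sets of Igf1 were lower while the brightest was not. Stat5a, Stat5b, Bcl6, Cux2, Socs2, Cish and Igfals did not pass the test on their brightest probe set. Each gene was represented by its brightest probe set on average, and limma tested all 18193 genes at a Benjamini-Hochberg adjusted p of 0.05. On this scale 2 of the 10 genes were lower and none higher, a share of 20%, where 20.3% of all genes passed, 11.3% lower and 9.02% higher. Against all genes the count is thus at the background. All 10 genes belong to the 9095 brighter genes, with a mean level above the median. Tested alone, 2636 of those 9095 passed, 1798 lower and 838 higher, and the axis count was again 2. The median log2 change of the 10 genes was -0.19, against 0.01 over all genes and -0.04 over the brighter genes. The groups did not overlap for 1 of the 10 genes, Ghr, and for 12.9% of all genes. None of the 10 passed with the spike-in set as a block, where 0.786% of all genes did. In bulk liver, fewer cells of a type and less RNA per cell cannot be told apart.

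**Figure D1:**
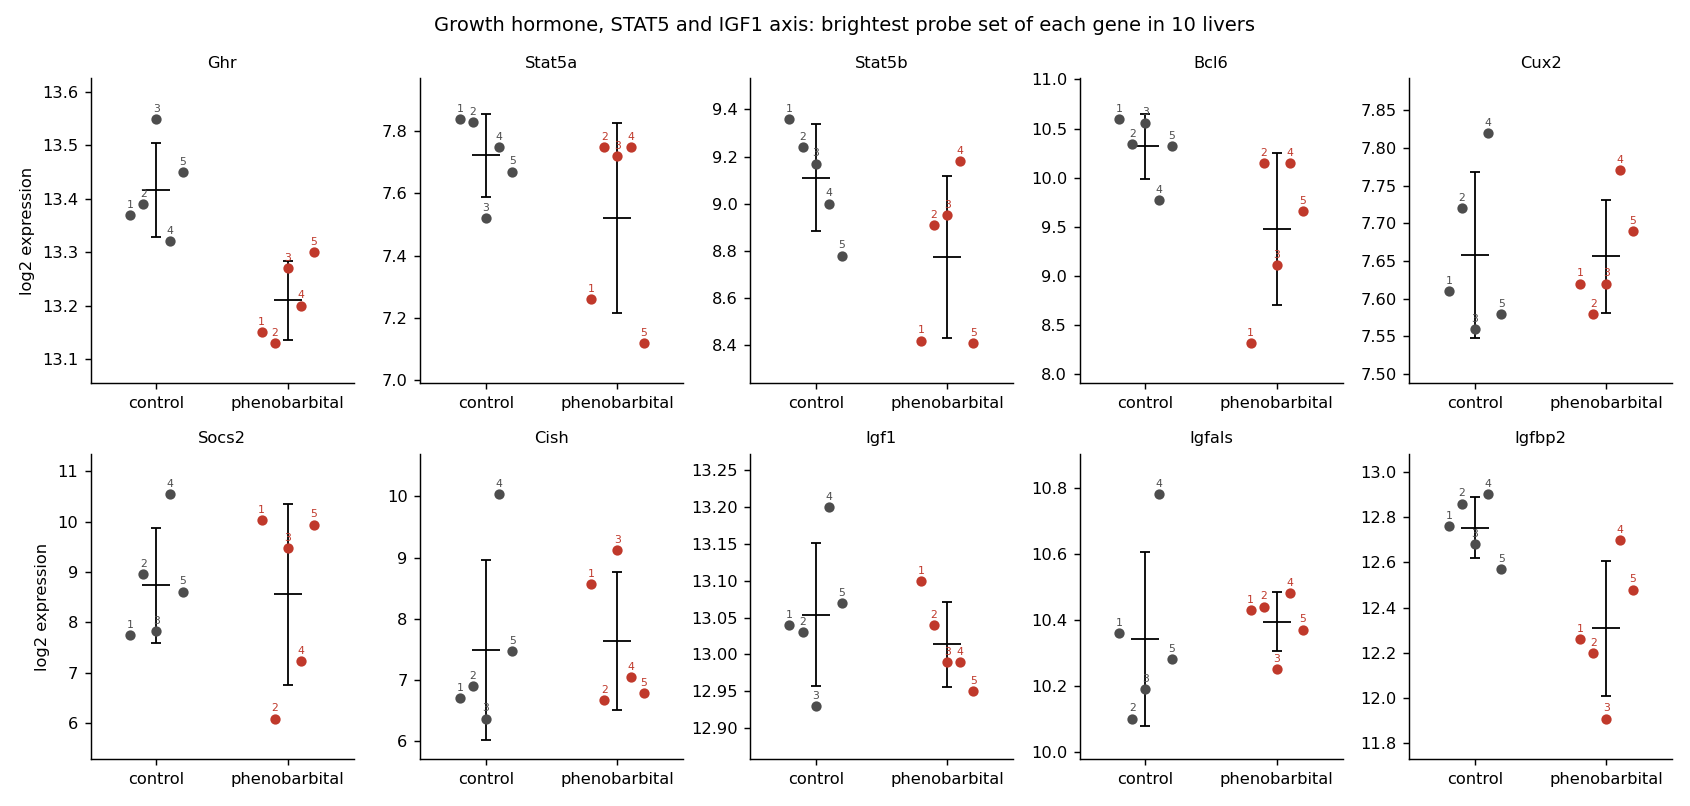
Log2 expression of the brightest probe set of each of the 10 genes in control (grey) and phenobarbital (red) livers, with replicate numbers beside the points and the mean ± SD as bars. The axes differ between panels: Ghr spans 13.13 to 13.55 without overlap between groups, while Socs2 spans 6.09 to 10.54 with partial overlap, treated replicates 2 and 4 lying below every control.

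Tested singly over 45037 probe sets, 7 of the 25 were lower and 1 was higher, or 32.0%, against 18.7% of all probe sets, of which 11% were lower and 7.7% higher. The 7 lower probe sets belonged to Ghr (3 of 3), Igf1 (3 of 4) and Igfbp2 (1 of 1), and the higher one to Socs2. The groups did not overlap in 6 of the 25, against 11.8% of all probe sets. Probe sets of 1 gene read the same transcripts, so these 8 calls are not 8 independent results. With the spike-in set as a block none of the 25 passed (0.389% of all probe sets did).

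**Figure D2:**
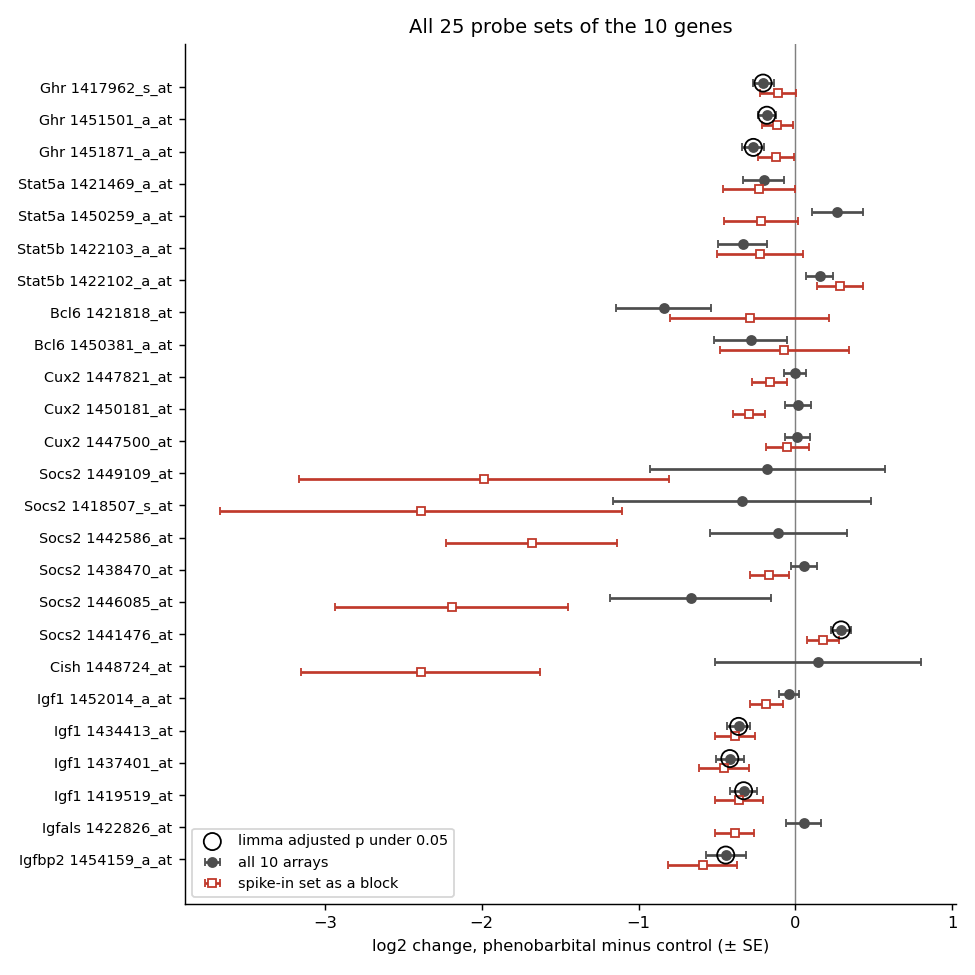
Log2 change (phenobarbital minus control, ± SE) of all 25 probe sets of the 10 genes, over all 10 arrays (filled circles) and with the spike-in set as a block (open squares). Rings mark a limma adjusted p under 0.05 over all 10 arrays: the 3 probe sets of Ghr, 3 of Igf1, 1 of Igfbp2 and 1 of Socs2.

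Ghr, which encodes the growth hormone receptor and by a shortened transcript the circulating binding protein, was lower in every treated liver than in any control. On the brightest probe set (1417962_s_at) the controls stood at 13.37, 13.39, 13.55, 13.32 and 13.45 in replicates 1 to 5, and the treated livers at 13.15, 13.13, 13.27, 13.20 and 13.30. The gap between the groups was narrow, 13.30 against 13.32. The log2 change was -0.21 ± 0.07 (SE), a 1.15-fold difference (limma adjusted p = 0.0405), from 13.42 ± 0.09 to 13.21 ± 0.07 (SD, n = 5 each). The other probe sets gave the same direction without overlap: 1451501_a_at went from 12.44 ± 0.04 to 12.26 ± 0.04 and 1451871_a_at from 8.53 ± 0.13 to 8.27 ± 0.04 (SD, n = 5; limma adjusted p = 0.043 and 0.0219 over probe sets). The first of these lost its call after median centring (-0.15) and without any 1 animal other than control replicate 4 (-0.19 to -0.17), the second after quantile normalisation (-0.19) and without phenobarbital replicate 4 (-0.26). The gene's call was lost after median centring (-0.17, limma adjusted p = 0.0775), within the spike-in set (-0.11, adjusted p = 0.71), and when any 1 animal other than control replicate 4 or phenobarbital replicate 5 was left out (-0.22 to -0.17).

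Of 13 measured genes that act at or just below the receptor, 3 were lower and none higher (23.1%, against 20.3% of all genes), with a median log2 change of 0.06. Irs2, an adaptor shared with the insulin receptor, was the largest, going from 7.63 ± 0.23 to 6.53 ± 0.27 (SD, n = 5), a log2 change of -1.09 ± 0.13 (SE, limma adjusted p = 0.000314; -0.82 within the spike-in set, adjusted p = 0.133). Jak2, the kinase bound to the receptor, fell from 8.28 ± 0.13 to 7.97 ± 0.08, a log2 change of -0.31 ± 0.07 (SE, limma adjusted p = 0.0113), and its within-set value was -0.20 (adjusted p = 0.51). The groups did not overlap for either gene, and both calls held when any 1 animal was left out. Ptpn11, the phosphatase SHP-2, was lower by a smaller step, from 9.48 ± 0.05 to 9.28 ± 0.03 (limma adjusted p = 0.0241). That call was lost after quantile normalisation (-0.15), median centring (-0.17), within the spike-in set (-0.22), and on leaving out control replicate 3 (-0.18) or 1 of phenobarbital replicates 2, 4 and 5 (-0.20, -0.19 and -0.20). The split of the calls moved with the scale: 3 higher and 2 lower after quantile normalisation, 2 and 2 after median centring.

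Stat5a and Stat5b lie side by side on chromosome 11 and encode close paralogs, of which STAT5B is the more abundant in liver. Stat5b (1422103_a_at) stood at 9.36, 9.24, 9.17, 9.0 and 8.78 in controls and at 8.42, 8.91, 8.95, 9.18 and 8.41 in treated livers. Phenobarbital replicates 1 and 5 were the lowest of the 10, and the other treated livers lay within the control range. Its log2 change of -0.34 ± 0.15 (SE) did not pass limma (adjusted p = 0.136; -0.23 within the spike-in set). Stat5a (1421469_a_at) was lowest in the same 2 livers, at 7.26 and 7.12, while treated replicates 2, 3 and 4 (7.75, 7.72 and 7.75) lay within the controls (7.52 to 7.84). Its log2 change was -0.20 ± 0.13 (SE, limma adjusted p = 0.279). The dimmer probe set of each gene gave the opposite sign, so neither direction was common to a gene's probe sets. The log2 changes there were 0.16 ± 0.09 for Stat5b and 0.27 ± 0.16 for Stat5a (SE, limma adjusted p = 0.224 and 0.272 over probe sets). That of Stat5a is weak evidence, since its probe set averaged 4.74 in controls and 5.01 in treated livers, below the lowest array median of 5.42.

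Socs2 and Cish, feedback inhibitors that STAT5 induces within minutes to hours of a growth hormone pulse, varied more between animals of a group than between the groups. Cish (1448724_at) stood at 6.71, 6.90, 6.37, 10.03 and 7.47 in controls and at 8.57, 6.67, 9.12, 7.05 and 6.79 in treated livers. Control replicate 4 was the highest and treated replicates 3 and 1 followed. Within the controls alone Cish spanned 12.6-fold, and 1 other gene of 18193 had a larger SD among controls. Its log2 change was 0.14 ± 0.65 (SE, limma adjusted p = 0.899), and -2.39 within the spike-in set (adjusted p = 0.20), where the comparison rests on that high control.

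Socs2 (1449109_at) stood at 7.74, 8.96, 7.82, 10.54 and 8.61 in controls and at 10.03, 6.09, 9.48, 7.23 and 9.94 in treated livers. The treated animals held both the lowest value of all and 3 of the 4 highest, a 15.3-fold span, and no gene of 18193 had a larger SD among treated livers. The log2 change was -0.18 ± 0.74 (SE, limma adjusted p = 0.888), with -1.99 within the spike-in set (adjusted p = 0.505). A second probe set, 1418507_s_at, had the same lowest and highest animals, from 4.54 in treated replicate 2 to 9.61 in control replicate 4. With SEs of 0.65 and 0.74, a 2-fold change of either gene was not detectable with 5 animals a group. The 1 called probe set of Socs2, 1441476_at, went from 3.26 ± 0.07 to 3.55 ± 0.06 (SD, n = 5; limma adjusted p = 0.00868 over probe sets), below the lowest array's lower quartile of 4.13 and so not shown to be above background.

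Bcl6, a transcriptional repressor that growth hormone acting through STAT5 lowers in liver, also varied widely between the treated livers. On 1421818_at the controls stood at 10.60, 10.34, 10.56, 9.77 and 10.32, and the treated livers at 8.32, 10.15, 9.11, 10.15 and 9.66. The 4 livers with the lowest Bcl6 (treated replicates 1, 3 and 5 and control replicate 4) were the 4 with the highest Socs2 on 1449109_at. This pattern was picked out after the values were seen, and it did not hold on the dimmer Socs2 probe sets 1442586_at and 1446085_at. There control replicate 5 (6.42 and 5.58) lay above treated replicates 1 (5.87 and 3.63) and 5 (5.78 and 3.61). The group means of Bcl6 were 10.32 ± 0.33 and 9.48 ± 0.78 (SD, n = 5). The log2 change of -0.84 ± 0.30 (SE) missed the threshold (limma adjusted p = 0.0637) and was -0.29 within the spike-in set. It passed without control replicate 4 (-0.98, limma adjusted p = 0.0379) and without phenobarbital replicate 2 or 4 (-1.01 each, adjusted p = 0.0433 and 0.0403). Without phenobarbital replicate 1, the lowest liver, it shrank to -0.55 (adjusted p = 0.099). The second probe set, 1450381_a_at, gave -0.29 ± 0.23 (SE, limma adjusted p = 0.419 over probe sets), and -0.08 without that liver (adjusted p = 0.808).

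Over all 45 pairs of the 10 genes, 0 correlations across the 10 animals passed a Benjamini-Hochberg value of 0.05 by permutation test, and 6 had an unadjusted p under 0.05. The highest was Stat5a with Stat5b (r = 0.85, permutation p = 0.00469, Benjamini-Hochberg 0.211; rho 0.83, permutation p = 0.00484, Benjamini-Hochberg 0.218), which fell to 0.32 without phenobarbital replicates 1 and 5 and so rests on them. Stat5b with Bcl6 followed (r = 0.71, permutation p = 0.0213, Benjamini-Hochberg 0.299; rho 0.71, permutation p = 0.0257, Benjamini-Hochberg 0.348), with 0.46 without the same 2 animals. Within the low spike-in set these r were 0.95 and 0.62. The 3 pairs among Socs2, Cish and Bcl6 are given because of the pattern seen in their values, and Bcl6 with Socs2 is not among the 6. Pearson's r was 0.69 for Socs2 with Cish (permutation p = 0.0266, Benjamini-Hochberg 0.299; Spearman's rho 0.68, permutation p = 0.0341, Benjamini-Hochberg 0.348). For Bcl6 with Socs2 it was -0.60 (permutation p = 0.0657, Benjamini-Hochberg 0.357; rho -0.61, permutation p = 0.0684, Benjamini-Hochberg 0.376), and for Bcl6 with Cish -0.63 (permutation p = 0.0476, Benjamini-Hochberg 0.357; rho -0.64, permutation p = 0.0516, Benjamini-Hochberg 0.348). For these 3 pairs, leaving out the 2 animals farthest from the median of the first gene gave 0.57, -0.57 and -0.53 in the same order. Within the 6 arrays of the low spike-in set r was 0.69, -0.61 and -0.45, and the 4 arrays of the high set are too few for a value. With each group centred on its own mean it was 0.70, -0.82 and -0.75. Centred values of that size also came from Ghr with Igf1 (-0.83, against -0.24 uncentred) and Stat5a with Stat5b (0.81). Also among the 6 were Cish with Igf1 (r = 0.70, permutation p = 0.0235, Benjamini-Hochberg 0.299) and Igf1 with Igfals (r = 0.68, permutation p = 0.038, Benjamini-Hochberg 0.342).

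**Figure D3:**
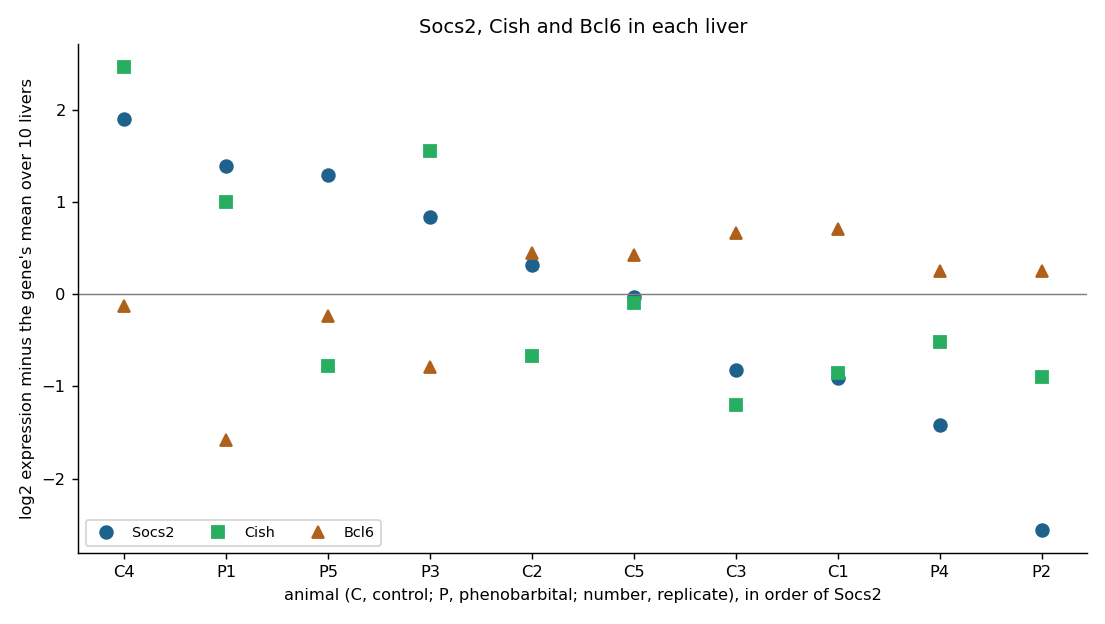
Log2 expression of Socs2, Cish and Bcl6 in each liver, each gene on its brightest probe set. Values are differences from the gene's own mean over the 10 livers, with the animals in order of Socs2. The 4 livers on the left, with Socs2 from 10.54 down to 9.48, have the 4 lowest Bcl6 values (8.32 to 9.77), and the 6 others lie at 10.15 or above.

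STAT5 binds the palindrome TTCNNNGAA, which reads the same on both strands. It was searched in RefSeq's windows of 250 bases before to 50 after a start site (GRCm38.p6), which held 9 of the 10 genes in 17 windows; Socs2 was not among them. Of all 32851 windows of this length 8.3% held the motif, 0.457% held it 2 or more times and 11 windows held it 3 or more times. Cish held 2 copies and Bcl6 3 in 1 of its 2 windows and 1 in the other. Igfals, which encodes the acid-labile subunit that keeps IGF1 in the blood, held 1 in each of 2 of its 3 windows. The windows of Ghr, Stat5a, Stat5b, Cux2, Igf1 and Igfbp2 did not contain these letters. The matches are shown because these 3 are the axis genes whose windows hold the motif, with the motif in capitals, 5' to 3' on the gene's strand:
Cish, chr9:107296654-107296683, plus strand: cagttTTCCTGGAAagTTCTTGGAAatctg
Bcl6 upstream window, chr16:23988952-23988981, minus strand: tagcaaattagTTCTCAGAAttccagaggc
Bcl6 downstream window, chr16:23981284-23981533, minus strand: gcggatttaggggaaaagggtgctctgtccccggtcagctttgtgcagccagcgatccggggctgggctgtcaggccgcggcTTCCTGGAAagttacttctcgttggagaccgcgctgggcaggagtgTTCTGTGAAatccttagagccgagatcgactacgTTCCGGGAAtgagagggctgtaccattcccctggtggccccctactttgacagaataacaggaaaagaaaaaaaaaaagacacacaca
Igfals first window, chr17:24877597-24877626, plus strand: cgatctataatTTCTCAGAAaagaggctga
Igfals second window, chr17:24878162-24878191, plus strand: tctgccaggtgTTCCTAGAAgaggccctgg
In Cish the matches begin at bases 1 and 12 from the start site, so they lie just inside the transcript. In the downstream window of Bcl6 they begin at -168, -122 and -88, and TTCCTGGAA is the same 9 letters as the first match in Cish. A match describes the letters alone, and binding was not measured.

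Cux2, the repressor that marks female mouse liver, stood at 7.61, 7.72, 7.56, 7.82 and 7.58 in controls and at 7.62, 7.58, 7.62, 7.77 and 7.69 in treated livers on 1447821_at. The groups overlapped fully, with means of 7.66 ± 0.11 and 7.66 ± 0.08 (SD, n = 5), a log2 change of -0.002 ± 0.07 (SE, limma adjusted p = 0.988) and -0.16 within the spike-in set. The other probe sets lay near the bottom of the scale, 1450181_at at 4.55 ± 0.18 and 4.57 ± 0.03 and 1447500_at at 3.28 ± 0.13 and 3.29 ± 0.11 (SD, n = 5).

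Of 16 measured male-biased liver genes 1 was higher and 2 lower (18.8%, against 20.3% of all genes), with a median log2 change of -0.002. The uptake carrier Slco1a1 fell from 12.60 ± 0.09 to 12.11 ± 0.07 (SD, n = 5; limma adjusted p = 0.000479), and the fatty acid omega-hydroxylase Cyp4a12a rose to 12.95 ± 0.06 from 12.70 ± 0.09 (limma adjusted p = 0.015). Cyp7b1, an oxysterol hydroxylase, had a log2 change of -0.50 ± 0.15 (SE, limma adjusted p = 0.0371), a call that ended when any 1 animal other than control replicate 2 or phenobarbital replicates 1 and 5 was left out (-0.53 to -0.41), and with trend and robust variance (adjusted p = 0.0705). None of the 3 passed within the spike-in set (-0.38, 0.10 and -0.68). The genes that did not pass varied in size. Values close to 0 came from the elongase Elovl3 (0.02 ± 0.09), the steroid dehydrogenase Hsd3b5 (-0.06 ± 0.08) and the pheromone carrier Mup3 (0.03 ± 0.06, SE). The largest in each direction were Moxd1 (0.83 ± 0.31), with controls near the bottom of the scale at 3.87, and Ugt2b38 (-0.44 ± 0.27, SE).

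Of 28 measured female-biased liver genes 10 were higher and 3 lower (46.4%, against 20.3% of all genes), with a median log2 change of 0.20. Within the spike-in set 5 were higher and 1 lower. The list holds drug-metabolising genes known to respond to phenobarbital, and such genes lead it. Cyp2b10, Cyp2b9 and Gstt3 had log2 changes of 7.05, 4.14 and 2.71 (7.57, 5.26 and 2.51 within the spike-in set). The next largest rise was that of Prom1, which is not a drug-metabolising gene. It had 2.44 ± 0.21 (SE, limma adjusted p = 1.4e-05), and 2.68 within the spike-in set. The other higher genes were Cyp2b13, Sult3a1, Cyp17a1, Cyp3a44, Fmo1 and Cyp3a16. Cyp3a16 averaged 2.90 in controls and 3.20 in treated livers, below the lowest array's lower quartile of 4.13. Sult3a1 averaged 3.92 in controls, also below it, and 5.34 in treated livers. The lower members were the fatty acid hydroxylase Cyp4a14 (-1.77), the peroxisomal transporter Abcd2 (-0.43) and the neurotrophin receptor Ntrk2 (-0.42). Ntrk2 also passed within the spike-in set (-0.64, limma adjusted p = 0.0369) but had 0.04 when its probe sets were averaged. Cyp4a14 and Abcd2 had within-set values of -0.13 and -0.05. Cyp4a14 lost its call without control replicate 3 (-1.73) and with trend and robust variance (limma adjusted p = 0.0766). Abcd2 lost its call after quantile normalisation (-0.37), after median centring (-0.39) and without any 1 animal other than control replicate 4 or phenobarbital replicate 3 (-0.45 to -0.35).

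**Figure D4:**
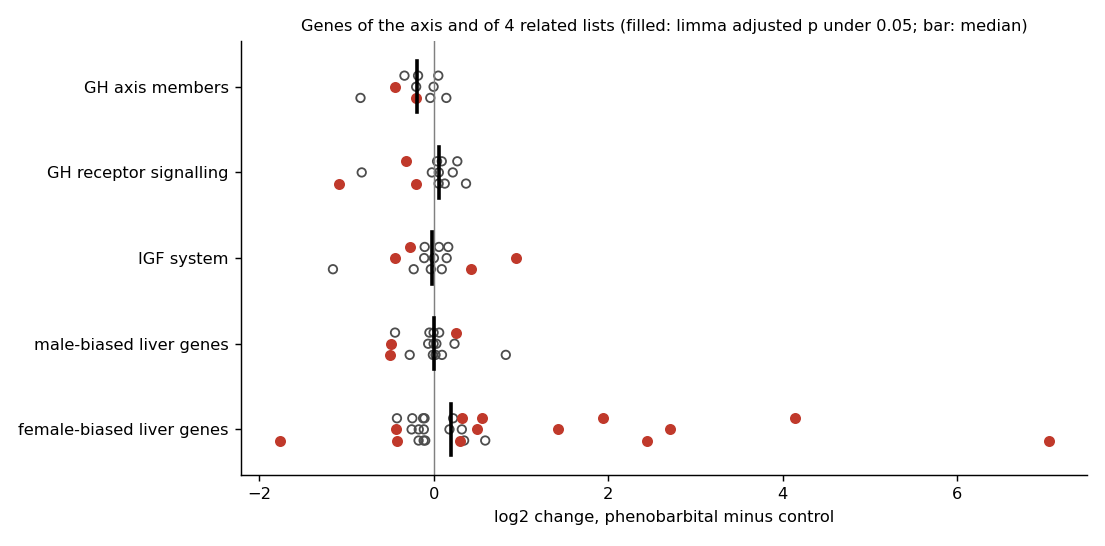
Log2 change (phenobarbital minus control) of the 10 axis genes and of 4 related lists, 1 point per measured gene, filled where the limma adjusted p was under 0.05, with the list's median as a bar. The axis genes lie between -0.84 and 0.14, and the female-biased list reaches 7.05 with Cyp2b10.

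Igf1, the growth factor through which much of growth hormone's effect on the body is carried, gave a different answer on its brightest probe set than on the other 3. On 1434413_at the controls stood at 12.54, 12.87, 12.81, 12.78 and 12.79 and the treated livers at 12.45, 12.30, 12.40, 12.44 and 12.39. Every treated liver lay below every control, and the log2 change was -0.36 ± 0.07 (SE), a 1.29-fold difference (limma adjusted p = 0.00665 over probe sets). On 1437401_at the groups were again apart, at 12.38 to 12.57 and 11.89 to 12.29, with a log2 change of -0.42 ± 0.09 (SE, limma adjusted p = 0.00906). On 1419519_at they overlapped by 1 treated liver, at 11.13 to 11.42 and 10.82 to 11.19, with -0.33 ± 0.09 (SE, limma adjusted p = 0.0197); this call was lost without phenobarbital replicate 2 (-0.29, adjusted p = 0.0544).

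The brightest probe set of Igf1, 1452014_a_at, stood at 13.04, 13.03, 12.93, 13.20 and 13.07 in controls and at 13.10, 13.04, 12.99, 12.99 and 12.95 in treated livers. The groups overlapped, with a log2 change of -0.04 ± 0.06 (SE, limma adjusted p = 0.694). Its suffix marks probes that can read alternative transcripts of the gene, and its distance from the 3' end was not examined. The part of transcripts or of that distance in its different result was not tested. Its excess over the mean of the other 3 probe sets was 0.87 ± 0.15 in controls (0.98 in control replicate 4) and 1.20 ± 0.13 in treated livers (SD, n = 5; exact two-sided permutation p = 0.00794, the smallest that 5 against 5 allows), a measure added after the values were seen. Averaged over its 4 probe sets, Igf1 was lower by limma (-0.29, adjusted p = 0.00847). With single-transcript probe sets alone, the brightest of them, 1434413_at, represented the gene, with -0.36 (limma adjusted p = 0.00519 over genes). That is the change already given for this probe set, not a separate result. The within-set values of the 3 lower probe sets were -0.38, -0.45 and -0.36, as large as over all arrays, and did not pass (limma adjusted p = 0.25, 0.274 and 0.359). That of the brightest probe set was -0.19, larger than over all arrays, so the contrast between it and the other 3 was narrower there.

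**Figure D5:**
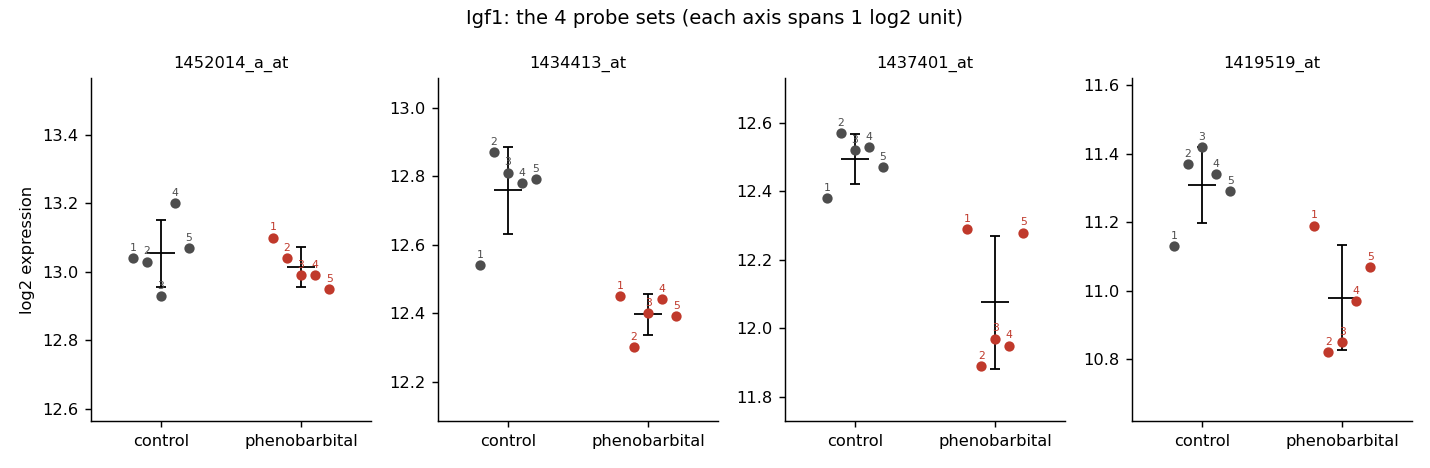
Log2 expression on the 4 probe sets of Igf1 in control (grey) and phenobarbital (red) livers, with the mean ± SD (n = 5 each). Every axis spans the same range of 1 log2 unit, and the groups are apart on 1434413_at and 1437401_at, overlap by 1 treated liver on 1419519_at and overlap fully on 1452014_a_at.

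Igfals stood at 10.36, 10.10, 10.19, 10.78 and 10.28 in controls and at 10.43, 10.44, 10.25, 10.48 and 10.37 in treated livers (1422826_at). Control replicate 4 was the highest of all, and the treated livers lay within the control range. The log2 change was 0.05 ± 0.11 (SE, limma adjusted p = 0.77), and -0.39 within the spike-in set (adjusted p = 0.192), which sets the treated livers against that high control.

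Igfbp2, an IGF-binding protein secreted by hepatocytes, stood at 12.76, 12.86, 12.68, 12.90 and 12.57 in controls and at 12.26, 12.20, 11.91, 12.70 and 12.48 in treated livers (1454159_a_at). All treated livers but replicate 4 lay below every control. It fell from 12.75 ± 0.13 to 12.31 ± 0.30 (SD, n = 5), a log2 change of -0.44 ± 0.13 (SE), or 1.36-fold (limma adjusted p = 0.026). The within-set value was larger, -0.59 ± 0.22 (SE), and did not pass (adjusted p = 0.264). The call was lost without control replicate 2 (-0.42, adjusted p = 0.0623) and without phenobarbital replicate 1 or 2 (-0.43 and -0.42, adjusted p = 0.0507 and 0.0624).

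Among 14 measured genes of the wider IGF system, 2 were higher and 2 lower (28.6%, against 20.3% of all genes), with a median log2 change of -0.02. Igfbp5, a binding protein that attaches to extracellular matrix, had 7.84 ± 0.29 in controls and rose to 8.78 ± 0.65 (SD, n = 5; adjusted p = 0.0218 by limma), a call lost without control replicate 2 (0.84), with trend and robust variance (adjusted p = 0.0525 by limma), with the mean of probe sets (0.39) and within the spike-in set (0.53). Pappa2, a protease that cuts IGF-binding proteins, went from 3.86 ± 0.13 to 4.28 ± 0.13, near the bottom of the scale (limma adjusted p = 0.0051). The insulin receptor gene Insr fell from 10.54 ± 0.23 to 10.09 ± 0.09 (limma adjusted p = 0.01) and the scavenger receptor gene Igf2r from 8.58 ± 0.17 to 8.30 ± 0.12 (limma adjusted p = 0.0448). Averaging its probe sets ended the call of Insr (-0.17), and that of Igf2r ended after averaging (-0.12), after either rescaling (-0.20 and -0.24) and when any 1 animal was left out other than control replicates 2 and 4 and phenobarbital replicate 1 (-0.29 to -0.24). Within the spike-in set none of the 4 passed. Igfbp1, which insulin represses, had the widest spread, at 11.60 ± 0.89 and 10.44 ± 1.31 (SD, n = 5; limma adjusted p = 0.157).

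Some of these genes are also expressed outside hepatocytes, and markers of other liver cells moved with the groups. Of 6 stellate cell markers 3 were lower (50%, where 20.3% of all genes passed), and the list's mean level was 8.65 to 8.78 in controls and 8.21 to 8.58 in treated livers. Of 6 endothelial markers 4 were lower (66.7%), with 8.05 to 8.54 and 7.79 to 8.23. Within the spike-in set 0 markers of either list passed. Of 10 Kupffer cell and leukocyte markers none passed (6.73 to 7.0 and 6.72 to 6.92), of 4 cholangiocyte markers 1 was higher (5.24 to 5.57 and 5.35 to 5.50), and of 6 hepatocyte markers 1 was lower. Their part in the changes of Igf1, Igfbp2, Igfbp5 and Igf2r was not tested.

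The genes with the profile most like Bcl6 over the 10 arrays, by the mean absolute difference of centred log2 levels, were Snai2 (0.23), Fzd5 (0.27) and Pm20d2 (0.29). These profiles include the difference between the groups, so the choice favours genes that change as Bcl6 does. The same holds for Igf1 below, and the changes of the chosen genes are descriptions, not separate evidence. Snai2, a transcriptional repressor, and Pm20d2 were lower by limma (-0.73 and -0.85, adjusted p = 0.0391 and 0.00195), whereas Fzd5, a Wnt receptor gene, had -0.50 (adjusted p = 0.136). For the brightest probe set of Igf1, whose SD over the arrays was 0.08, the nearest were Zmat2, Cox6b1 and Mapkap1 (0.028, 0.029 and 0.030), all 3 with log2 changes between -0.08 and -0.01 that did not pass.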

How the data were processed

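Total RNA of each liver was labelled by 3' in vitro transcription and hybridised to its own Affymetrix array, per the labels' protocols, so probe sets far from the 3' end depend on RNA integrity. GCOS is named without a version in the submitters' processing notes. The authors deposited log2 values from 2.34 to 15.13, 1 per probe set and array. The log2 scale was read from that range, and how the values were normalised is not stated in the labels. No array quartile differed by more than 0.16, and values were used as deposited. Gene names came from the platform annotation, matched by Entrez ID to RefSeq for all 10 genes; 932 probe sets with several symbols were not used by gene. Depth on arrays is limited by their number (n = 5 per group).

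Groups came from the labels. limma 3.58.1 in R 4.3.3 (lmFit, eBayes, two-sided) compared them over 18193 genes and over 45037 probe sets without the 64 controls. The fit was tested on simulated data. Pairs were tested with 100000 permutations. Python 3.11.15 with scipy 1.17.1 and matplotlib 3.10.9 was used. The members, lists and tests were chosen with earlier results of these data known. Named genes were the 10 members, up to 3 called genes per direction of each related list, and the nearest profiles of Igf1 and Bcl6; others are named after their values were seen. Listed genes without a single-symbol probe set are not analysed here. Alternatives were quantile normalisation, median centring, brighter genes, other choices of probe set, trend and robust variance, a block for the replicate number or the spike-in set, and 1 animal left out at a time. Each array is a separate animal per the labels.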

Additional observations from a re-analysis of the deposited data

Results flagged for a closer look

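In 82 groups of 5 livers (each probe set of the axis and each named gene, by group), 2 held a liver far from the other 4, where chance gives about 1 in 20 groups. On the Socs2 probe set 1446085_at phenobarbital replicate 3 stood at 5.21, against 3.41 to 3.78 in the other treated livers. On the Igf1 probe set 1434413_at control replicate 1 stood at 12.54, against 12.78 to 12.87 in the other controls, and still above every treated liver.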

How the results depend on the processing

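With the spike-in set as a block, 143 genes passed in place of 3692, and the counts were 0 for the axis genes, 0 for receptor signalling, 0 for the IGF system, 0 for male-biased and 6 for female-biased genes. This block compares the treated livers with 1 control, and the cause of the loss was not tested. The axis count of 2 was 1 after median centring, 1 with single-transcript probe sets (Igf1, since Ghr and Igfbp2 have no such probe set and were not tested) and 4 genes with at least 1 called probe set tested singly. Receptor signalling went from 3 to 5 after quantile normalisation, and female-biased genes from 13 to 8 among the brighter genes, where fewer genes were tested. Leaving out 1 animal gave 2431 to 4610 genes in all, 0 to 3 axis genes, 2 to 5 in receptor signalling, 3 to 5 in the IGF system, 2 to 4 male-biased and 11 to 14 female-biased genes. The lowest totals were 2460 without control replicate 2 and 2431 without phenobarbital replicate 2, and the axis count was 0 without control replicate 2 or phenobarbital replicate 1. The share of higher calls was 44.4% as deposited, 31.8% among the brighter genes, 60% with quantile normalisation and 58.8% with median centring.

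Directions turned in results that had not passed, apart from Ntrk2 (0.0438 with the mean of probe sets). With the mean of probe sets Stat5a had 0.033. Cux2 had 0.0863 after quantile normalisation, 0.032 after median centring and 0.0087 with the mean of probe sets, and its probe set 1447500_at -0.031 after quantile normalisation. With the spike-in set as a block the values were -2.39 for Cish, -0.39 for Igfals, -0.22 for Stat5a 1450259_a_at, -0.29 and -0.052 for Cux2 1450181_at and 1447500_at, and -0.17 for Socs2 1438470_at. Leaving out 1 animal gave -0.0305 to 0.0385 for Cux2, -0.019 to 0.0935 and -0.022 to 0.0555 for its probe sets 1450181_at and 1447500_at, -0.55 to 0.44 for Socs2, -0.72 to 0.33 and -0.41 to 0.29 for its probe sets 1418507_s_at and 1442586_at, -0.23 to 0.78 for Cish and -0.0085 to 0.16 for Igfals.

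The replicate numbers are shared between the groups but mark different animals. Same-numbered livers correlated in their deviations from the group means at -0.02 to 0.12 over genes. Differently numbered livers were not compared, so these values do not settle whether the numbers pair them. With the replicate block 3664 genes and 2 axis genes passed, and receptor signalling had 5 called genes in place of 3. The calls of Igf2r and of Ghr 1451501_a_at missed the threshold with it (limma adjusted p = 0.0569 and 0.0836). The number of arrays limits what Cish and Socs2 can show.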
